A study of Mus musculus with 16 samples.

Results

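The lipid droplet coat genes are a group of 8 mouse genes, Plin1, Plin2, Plin3, Plin4, Plin5, Cidea, Cidec and G0s2, chosen by name from the 22367 protein-coding genes of the annotation. For each gene, every called region (island) that overlapped the gene body or the 50 kb on either side of it was taken from 16 ChIP-seq lists of 3T3-L1 cells, a mouse preadipocyte line. H3K27ac, a histone mark of active promoters and enhancers, was profiled in cells carrying an empty vector and in cells expressing the histone methyltransferase-like protein SETD5 with a V5 tag from a retrovirus under a weak viral promoter, before (0 h) and 48 h after induction with insulin, dexamethasone and IBMX, with 2 libraries (A and B) per condition. SETD5-V5 itself was profiled with the V5 antibody at 0 h and 6 h (2 libraries each), H3K4me1, found on enhancers that are primed or in use, at 0 h and 48 h (1 library each), and endogenous SETD5 at 0 h and 6 h (1 library each). All groups share the 3T3-L1 background, and both vectors are retroviral, so that no untransduced H3K27ac library enters a comparison. The labels name the SETD5 virus for both H3K4me1 libraries, whereas the study's figures show untransduced cells. The labels of the SETD5-V5 libraries name the virus for replicate B and give a dash for replicate A.

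Fat cells store triglyceride in a droplet whose surface is covered by proteins that control access of lipases. Perilipins form this coat: Plin1 is the main coat protein of adipocytes and holds back lipolysis until it is phosphorylated, Plin2 and Plin3 coat the small droplets of most cells, Plin4 binds nascent droplets, and Plin5 is known from oxidative tissues. Cidea and Cidec (also called Fsp27) act where droplets touch and move lipid from the smaller to the larger one, and G0s2 inhibits the triglyceride lipase ATGL, the product of Pnpla2.

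In mm9 the genes lie on 6 chromosomes, and 7 of the 8 are on the minus strand. Plin1 (ENSMUSG00000030546.7) spans chr7:86866050-86877662, Plin2 (ENSMUSG00000028494.6) chr4:86294290-86315964, Cidec (ENSMUSG00000030278.5) chr6:113374628-113385754 and G0s2 (ENSMUSG00000009633.2) chr1:195098355-195099382. Plin4 (ENSMUSG00000002831.7, chr17:56240014-56249225), Plin5 (ENSMUSG00000011305.5, chr17:56251024-56257019) and Plin3 (ENSMUSG00000024197.9, chr17:56418385-56429934) share a chromosome, and the start sites of Plin4 and Plin5 are 7.79 kb apart. Cidea is the member on the plus strand. The windows of Plin4 and Plin5 overlap so far that they hold the same H3K27ac islands, so that these genes give a single H3K27ac window value. That value enters the counts of members and the member medians below once for each gene. Joined, the windows make 7 regions of 798 kb in all, which held between 31 and 38 H3K27ac islands per list, of 31292 to 39949 islands in the whole lists.

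The promoters of Plin1, Cidec and G0s2 are shown because their start sites were the 3 in the group that gained H3K27ac in empty-vector cells. They were read from the mm9 genome from 250 bases before to 50 bases after the start site, 5′ to 3′ along the gene, and capitals mark matches to 3 motifs searched on both strands: the C/EBP motif TTGCNNAA, the AP-1 motif TGANTCA, and a direct repeat of AGGTCA spaced by 1 base (DR1, the kind of site bound by PPARγ with RXR) with up to 2 mismatches in its 12 fixed positions.
Plin1, chr7:86877613-86877912, minus strand: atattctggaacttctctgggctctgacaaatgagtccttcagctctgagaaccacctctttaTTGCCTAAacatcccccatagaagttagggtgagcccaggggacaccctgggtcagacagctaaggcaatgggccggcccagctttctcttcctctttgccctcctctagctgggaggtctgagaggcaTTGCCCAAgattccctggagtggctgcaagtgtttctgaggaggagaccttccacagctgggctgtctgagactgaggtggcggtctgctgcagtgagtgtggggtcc
Cidec, chr6:113385705-113386004, minus strand: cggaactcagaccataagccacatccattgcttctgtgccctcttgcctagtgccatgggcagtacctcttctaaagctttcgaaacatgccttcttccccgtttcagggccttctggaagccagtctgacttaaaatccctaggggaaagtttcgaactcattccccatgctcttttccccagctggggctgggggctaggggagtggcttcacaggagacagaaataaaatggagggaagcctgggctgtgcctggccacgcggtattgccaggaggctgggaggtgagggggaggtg
G0s2, chr1:195099333-195099632, minus strand: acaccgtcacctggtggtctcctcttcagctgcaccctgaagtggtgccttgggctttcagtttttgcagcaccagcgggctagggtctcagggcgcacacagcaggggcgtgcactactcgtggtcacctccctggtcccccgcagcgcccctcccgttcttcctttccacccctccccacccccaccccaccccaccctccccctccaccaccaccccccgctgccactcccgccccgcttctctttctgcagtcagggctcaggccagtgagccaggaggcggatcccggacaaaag
The Plin1 promoter held 2 C/EBP matches, 187 and 58 bases before the start site, and the Cidec and G0s2 promoters held no match to the 3 motifs. Over all 22367 promoters of this length, 10.3% held the C/EBP motif, 6.93% the AP-1 motif and 3.26% the DR1.

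DR1 matches were also searched around the start sites of Plin1, Plin2, Plin4, Cidec and G0s2, in the stretch that both empty-vector 48 h lists covered. The start site of Plin3 also had an island in both lists, but its stretch was not searched. G0s2 had 5 in 9.0 kb (0.556 per kb), Plin1 had 2 in 8.2 kb (0.244 per kb), Plin2 had 2 in 5.6 kb (0.357 per kb), Plin4 had 4 in 14.8 kb (0.27 per kb) and Cidec had 0 in 13.6 kb, against 0.167 per kb over the 93.8 Mb that both lists shared. All 5 matches at G0s2 lay in bases that neither SETD5 48 h list covered, which made up 7.6 of the 9.0 kb. At Plin4 1 of the 4 matches lay in such bases (7.2 of the 14.8 kb). Such bases made up 4.8 of the 8.2 kb at Plin1 and 2.2 of the 5.6 kb at Plin2. The nearest and the exact G0s2 matches and the nearest Plin1 and Plin2 matches are given with 15 bases on either side, with the DR1 in capitals.
G0s2, 1472 bases before the start site, chr1:195100827-195100869, plus strand: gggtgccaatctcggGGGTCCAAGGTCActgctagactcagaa
G0s2, 3635 bases before the start site, chr1:195102990-195103032, plus strand: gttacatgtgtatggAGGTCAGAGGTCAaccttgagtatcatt
Plin1, 1535 bases before the start site, chr7:86879170-86879212, minus strand: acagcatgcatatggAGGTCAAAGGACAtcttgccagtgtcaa
Plin2, 224 bases before the start site, chr4:86316161-86316203, plus strand: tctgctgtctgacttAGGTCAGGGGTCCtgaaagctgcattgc
The match at 3635 bases has 0 mismatches, the one at Plin1 has 1, and the remaining ones have 2. The Plin1 and Plin2 matches printed here lay in bases that at least 1 SETD5 48 h list also covered. The other match of each gene, 3960 and 1943 bases before the start site, lay outside both.

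At 48 h in empty-vector cells, broad H3K27ac islands stood over the start sites of Plin1, Cidec and G0s2, where no 0 h list of either vector had one. At Plin1 the islands were 14.4 and 8.2 kb long in libraries A and B, and only 4.68% and 9.44% of all islands in those lists scored higher. The library A island reached to -10.9 kb and took in the start sites of Pex11a and Wdr93. In library B a separate island of 5.4 kb covered those start sites. At Cidec the islands were 15 and 14.2 kb long, with 1.02% and 1.4% of islands scoring higher, and at G0s2 9.8 and 9.0 kb, with 9.93% and 13.6% scoring higher. Both Cidec islands also took in the start site of Jagn1, 6.81 kb before that of Cidec, where all 0 h lists of H3K27ac already had an island. Gain of a start-site island in both 48 h lists and neither 0 h list was seen for 3 of the 8 members and for 1.78% of all protein-coding genes. The opposite pattern was seen for 0 of the 8 members and for 1.1% of all genes.

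In SETD5 cells at 48 h these start sites differed from each other. The Plin1 start site carried islands of 3.2 and 3.4 kb, which reached 0.261 kb into the gene in both libraries, against 3.46 and 3.26 kb in the empty-vector libraries. The Cidec start site carried islands of 2.0 and 2.2 kb, with 54.6% and 62.1% of islands scoring higher. Separate islands of 5.6 and 5.4 kb, from -7.65 and -7.45 kb to -2.05 kb, covered the Jagn1 start site. The G0s2 start site had no island in either SETD5 list. Of the 399 protein-coding genes that gained a start-site island in empty-vector cells, 21.8% had none in either SETD5 list at 48 h, as G0s2 did.

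Plin2 and Plin4 had start-site islands before induction, and these became longer in empty-vector cells. At Plin4 the island measured 6.4 and 5.6 kb at 0 h and 16.2 and 15.6 kb at 48 h, when it covered the whole gene and only 0.54% and 0.716% of islands scored higher. In SETD5 cells it measured 3.6 and 5.6 kb at 0 h and 5.2 kb in both libraries at 48 h. At Plin2 the island went from 3.4 and 2.8 kb to 8.0 and 6.0 kb in empty-vector cells, and from 2.4 and 3.4 kb to 3.4 and 2.6 kb in SETD5 cells. The Plin3 island measured 6.0 and 4.8 kb at 0 h and 5.0 kb in both libraries at 48 h in empty-vector cells, and 5.4 and 5.6 kb in SETD5 cells at 48 h. Lengths at 48 h exceeded those at 0 h in both libraries at 2 of these 3 start sites in empty-vector cells and at 0 of the 3 in SETD5 cells, against 30.3% and 19.1% of all genes with start-site islands at both times. Here and in the ratios below, lengths were summed where different islands covered several annotated start sites of a gene. No member had more than a single start-site island in an H3K27ac list.

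Across the 5 members with a start-site island in all 4 lists at 48 h, the mean length in empty-vector cells was 6.95 times that in SETD5 cells at Cidec, 3.42 times at Plin1, 3.06 times at Plin4, 2.33 times at Plin2 and 0.909 times at Plin3. The median ratio over the 9917 genes with such islands was 1.1, and 0.141%, 0.867%, 1.23%, 2.74% and 78.3% of these genes had a higher ratio than Cidec, Plin1, Plin4, Plin2 and Plin3, in that order. The Cidec ratio sets islands that took in the Jagn1 start site against SETD5-cell islands that did not. The Plin1 ratio likewise includes the library A island that took in the Pex11a and Wdr93 start sites. Both empty-vector islands were longer than both SETD5 islands at 4 of the 5 members and at 28.4% of all genes, and the reverse held at 1 of the 5 (Plin3) and at 10.4%. The H3K27ac lists had no island over a start site of Plin5 or Cidea, as was the case for 47.5% of all genes. The Plin4 island extended into Plin5 and covered 43.0% and 56.3% of that gene body in the empty-vector libraries at 48 h, against 9.62% and 19.6% in SETD5 cells.

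**Figure D1:**
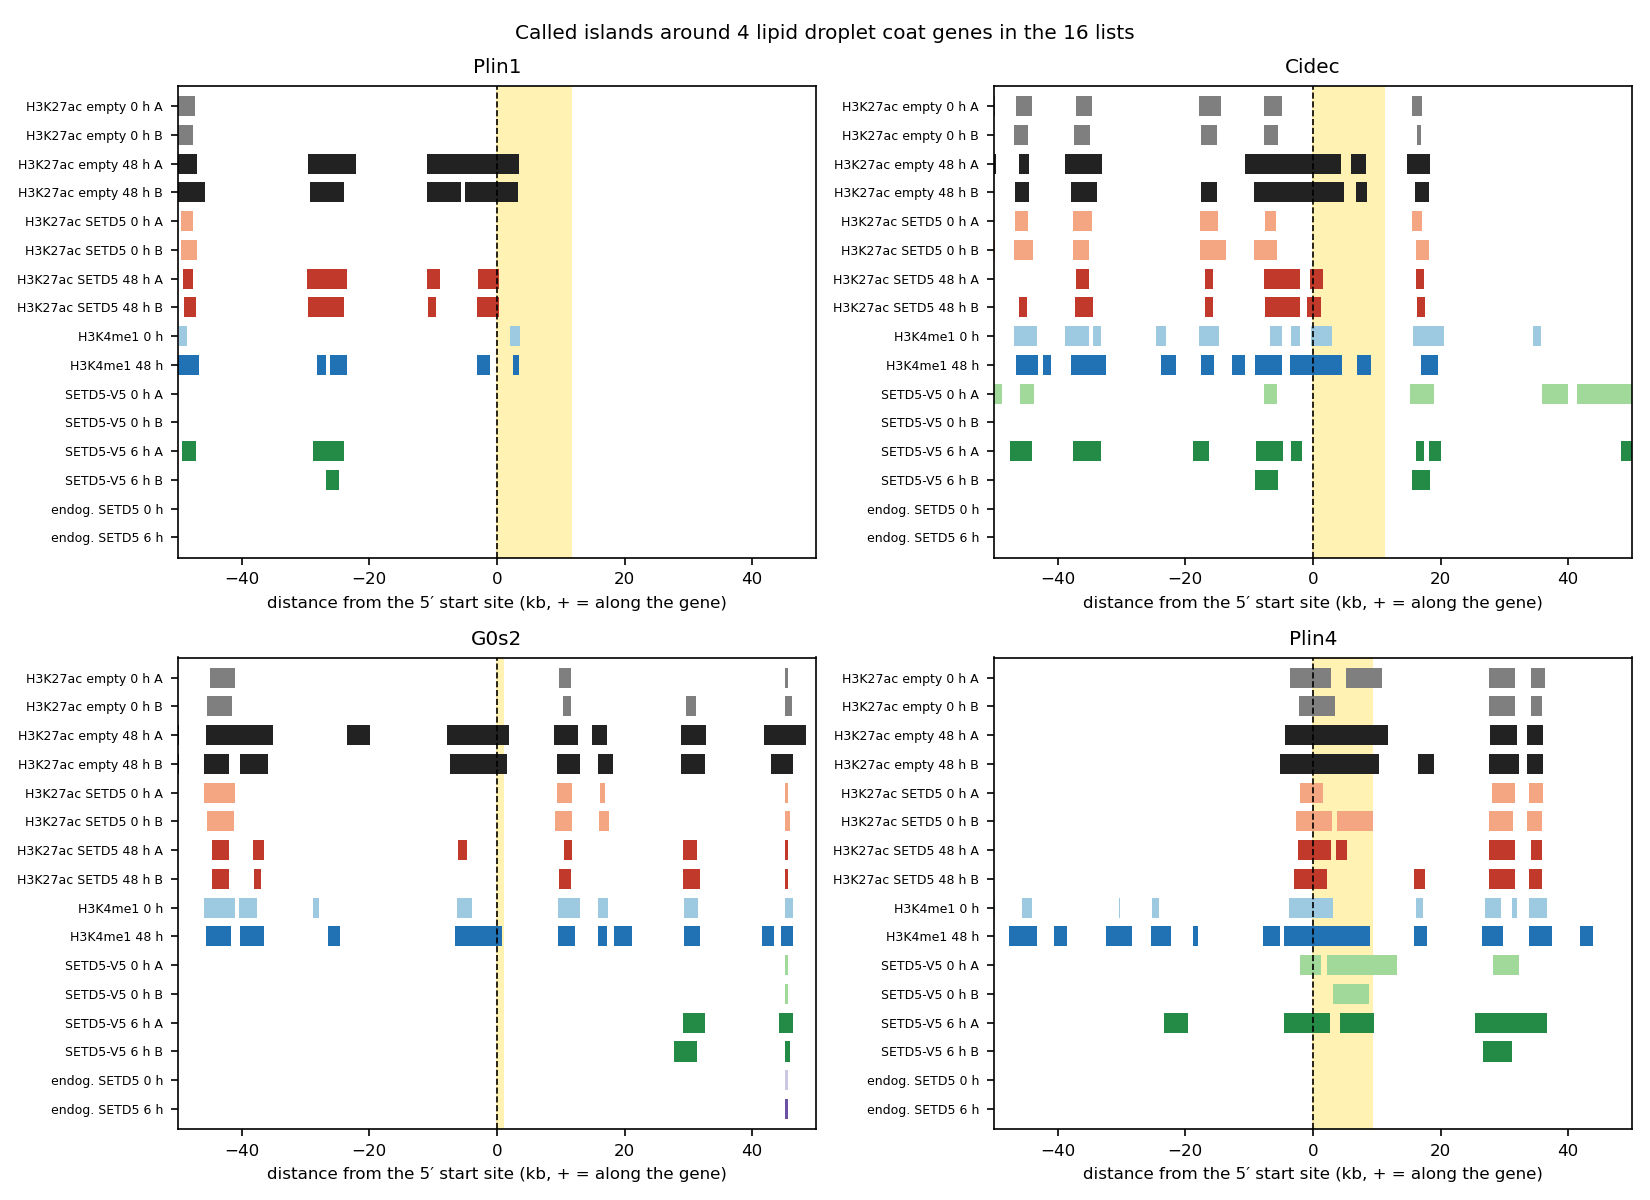
Islands of the 16 lists around the 5′ start sites (dashed line) of Plin1, Cidec, G0s2 and Plin4, by distance in kb along the gene (horizontal axis, cut at 50 kb on either side), with 1 line per library and the gene body shaded. The wide empty-vector 48 h islands over the start sites of all 4 genes contrast with start-site islands of 2.0 to 5.2 kb in SETD5 cells at Plin1, Cidec and Plin4 and with none at G0s2. At Cidec the SETD5 48 h lists have a further, separate island upstream, over the Jagn1 start site.

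The whole windows were then compared by the number of bases under islands, as log2(covered bp + 1000), with limma fitted over 17869 protein-coding windows. In empty-vector cells, 4 of the 8 members, Plin1, Plin2, Cidec and G0s2, gained H3K27ac coverage between 0 h and 48 h and 0 lost it, with 24.9% of all windows called higher and 14.2% lower. At Plin1, coverage was 2.66 and 2.4 kb at 0 h and 24.9 and 23.3 kb at 48 h (log2 difference 2.83 ± 0.17 SE, limma with Benjamini-Hochberg adjustment, adjusted p = 6.41e-06). At G0s2 it was 6.2 and 7.8 kb at 0 h and 40.8 and 30.6 kb at 48 h (2.19 ± 0.18, limma adjusted p = 2.71e-05). The groups did not overlap at either gene, and both 48 h libraries stood far above the 0 h libraries. The start-site islands made up 9.8 and 9.0 kb of the G0s2 coverage at 48 h. The G0s2 window also held the start sites of Hsd11b1, 9.13 kb after that of G0s2, and Lamb3, 28.8 kb before it. In library A an island from 8.98 to 12.8 kb after the G0s2 start site covered the Hsd11b1 start site. The corresponding library B island began at 9.38 kb.

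Cidec coverage went from 17.8 and 13.2 kb to 31.8 and 30.6 kb (0.98 ± 0.19, limma adjusted p = 0.00252). Plin2 coverage went from 12.6 and 10.0 kb to 23.8 and 17.6 kb (0.81 ± 0.22, limma adjusted p = 0.016), and this call was lost without empty-vector 48 h library A (0.60, limma adjusted p = 0.122) or 0 h library B (0.66, limma adjusted p = 0.107). The windows of Plin4 and Plin5 had 18.2 and 11.2 kb at 0 h and 22.8 and 25.2 kb at 48 h (0.71 ± 0.27, limma adjusted p = 0.0659), and Plin3 had 29.8 and 26.4 kb and then 36.4 and 31.6 kb (0.27 ± 0.13, limma adjusted p = 0.135). These windows did not pass, although both 48 h values exceeded both 0 h values. Without empty-vector 0 h library A the Plin4 and Plin5 value was 1.03 (limma adjusted p = 0.0301).

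Cidea (ENSMUSG00000024526.8, mm9 chr18:67503218-67527448) was the member with lower values at 48 h. Its window had 13 and 10.4 kb under H3K27ac islands in empty-vector cells at 0 h and 8.6 and 8.0 kb at 48 h (-0.44 ± 0.16, limma adjusted p = 0.0505), with no overlap between the groups. Islands centred 26.4 and 31.3 kb after its start site in library A, beyond the end of the 24.2 kb gene, were present in both 0 h lists and in neither 48 h list of empty-vector cells, and in both 0 h and both 48 h lists of SETD5 cells. Leaving out empty-vector 0 h library B gave a called decrease (-0.59, limma adjusted p = 0.0349), as did the 20 kb window (-1.06, limma adjusted p = 0.0015). Values were higher without overlap at 7 of 8 members, with Plin4 and Plin5 both counted, and lower at 1 of 8, against 40.1% and 23.3% of all windows. The median log2 difference was 0.76 over the members and 0.13 over all windows.

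In SETD5 cells, Plin1 was the member whose coverage rose between 0 h and 48 h, from 2.0 and 2.6 kb to 13 and 12 kb (2.04 ± 0.17, limma adjusted p = 6.29e-05), which is 1 of 8 members against 15.9% of all windows called higher and 12.7% lower. The rise came from the start-site islands, distal islands from -29.7 to -23.5 kb and from -29.5 to -23.9 kb relative to the start site, and islands of 2.0 and 1.2 kb beginning at -10.9 and -10.7 kb. The islands of 2.0 and 1.2 kb lay over the start sites of Pex11a and Wdr93, 10.355 and 10.387 kb before that of Plin1. The other 7 members had log2 differences between -0.33 and 0.13 and did not pass. G0s2 had 8.4 and 9.2 kb at 0 h and 9.6 and 8.4 kb at 48 h (0.03 ± 0.18), Cidec 13.6 and 18.6 kb and then 14.6 and 17.2 kb (0.00 ± 0.19), and Plin2 6.8 and 10.4 kb and then 8.6 and 9.6 kb (0.10 ± 0.22). Values did not overlap between the times at 2 of 8 members with higher coverage (Plin1 and Plin3) and 1 with lower (Cidea), against 32% and 30.7% of all windows. The median difference was 0.02 over the members and 0.00 over all windows.

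**Figure D2:**
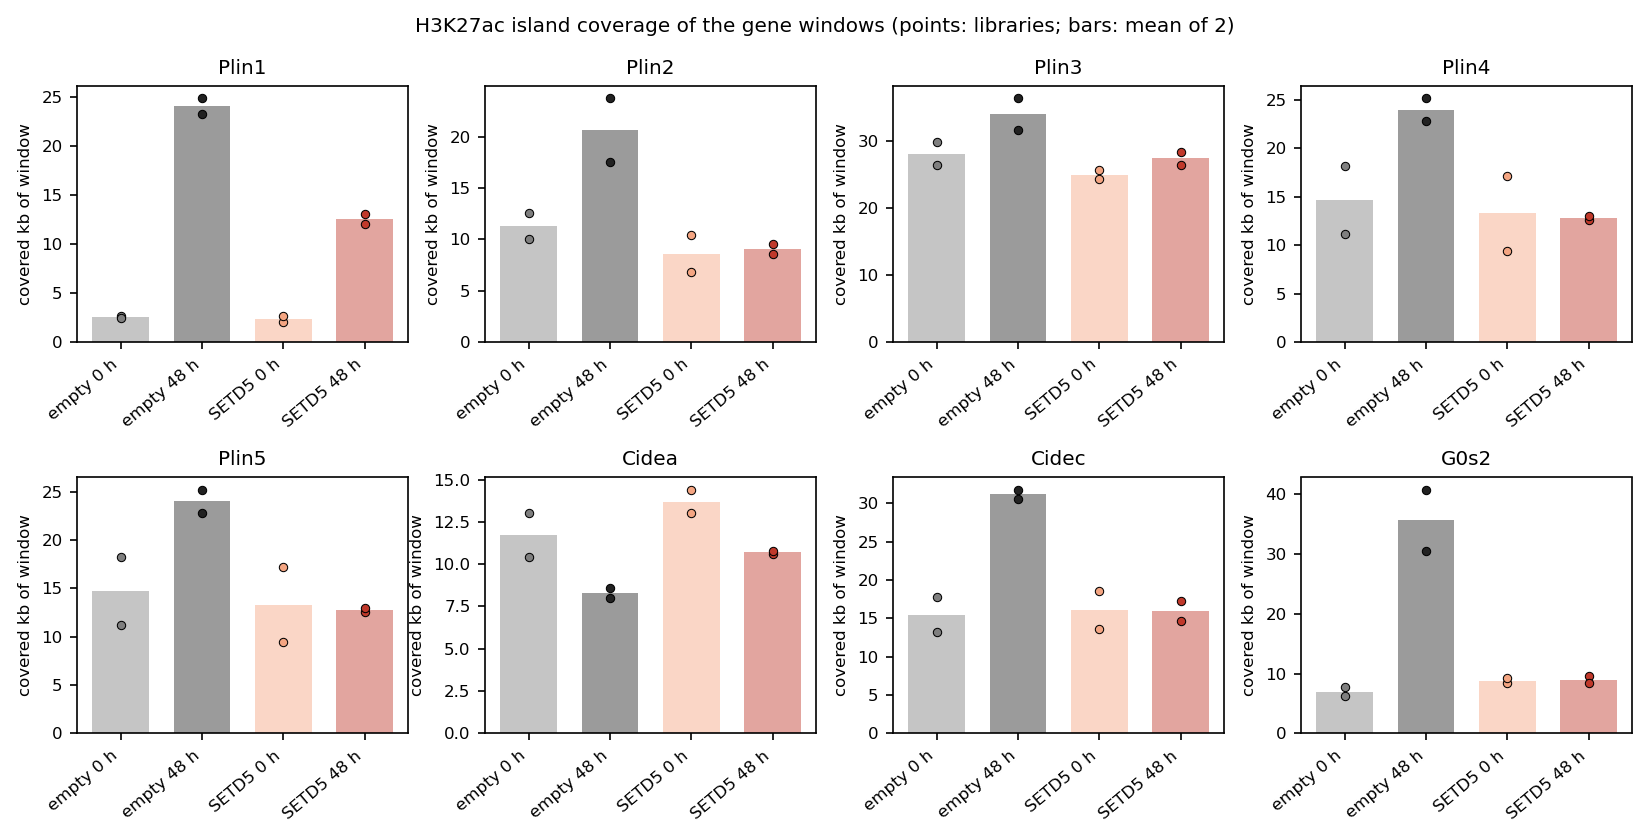
Bases under H3K27ac islands (kb, vertical axis) in each gene window for empty-vector and SETD5 cells at 0 h and 48 h, with points for the 2 libraries of a group and bars for their mean. The empty-vector 48 h libraries are highest at every gene but Cidea, where they are lowest at 8.6 and 8.0 kb.

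Set against empty-vector cells at 48 h, SETD5 cells had less H3K27ac coverage at 4 of the 8 members and more at 0, with 8.93% of all windows called lower and 7.86% higher. The largest difference was at G0s2, 9.6 and 8.4 kb against 40.8 and 30.6 kb (-1.86 ± 0.18, limma adjusted p = 0.000574). Plin2 differed by -1.09 ± 0.22 (8.6 and 9.6 kb against 23.8 and 17.6 kb, limma adjusted p = 0.0106), Cidec by -0.93 ± 0.19 (14.6 and 17.2 kb against 31.8 and 30.6 kb, limma adjusted p = 0.0101) and Plin1 by -0.89 ± 0.17 (13 and 12 kb against 24.9 and 23.3 kb, limma adjusted p = 0.00917). The calls at Plin1, Plin2 and Cidec were lost, at adjusted p of 0.0538 to 0.0955 in limma, on leaving out empty-vector library A, SETD5 library A or SETD5 library B at 48 h, and the call at G0s2 was not. Within windows of 100 kb on either side the Plin1 difference was -0.25 (limma adjusted p = 0.535). By the number of islands in place of covered bases, none of the 4 was called (G0s2 -0.47, limma adjusted p = 0.136).

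Plin4 and Plin5 (12.6 and 13 kb against 22.8 and 25.2 kb, -0.86 ± 0.27, limma adjusted p = 0.06) and Plin3 (26.4 and 28.4 kb against 36.4 and 31.6 kb, -0.30 ± 0.13, limma adjusted p = 0.151) did not pass, and Cidea had 10.6 and 10.8 kb against 8.6 and 8.0 kb (0.33 ± 0.16, limma adjusted p = 0.196). In 20 kb windows Cidea was called higher in SETD5 cells (0.78, limma adjusted p = 0.017). Values were lower in both SETD5 libraries at 7 of 8 members, with Plin4 and Plin5 both counted, and higher at 1, against 33.1% and 22.4% of all windows. The median difference was -0.87 over the members and -0.06 over all windows. These values share the empty-vector 48 h libraries with the comparison of 48 h with 0 h.

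Before induction no member passed the limma test between the vectors, and 0 of 8 had an unadjusted p under 0.05, with 2.06% of all windows called higher and 1.24% lower in SETD5 cells. The log2 differences lay between -0.38 (Plin2) and 0.30 (G0s2). Values of the vectors did not overlap at 1 member with higher (G0s2) and 1 with lower coverage (Plin3), against 24.8% and 14.1% of all windows.

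The response to induction was compared between the vectors as the difference of both 48 h minus 0 h differences. At G0s2 it was -2.16 ± 0.26 (limma adjusted p = 0.00713), so that 1 of 8 members had a smaller response in SETD5 cells and 0 a larger one, against 2.61% and 1.85% of all windows. Without SETD5 48 h library A the G0s2 value was -2.25 (limma adjusted p = 0.0535), and without library B it was -2.08 (limma adjusted p = 0.0514). The differences at Cidec (-0.98 ± 0.26, limma adjusted p = 0.0674) and Plin1 (-0.79 ± 0.25, limma adjusted p = 0.104) did not pass, nor did those of the other members, from -0.71 (Plin2) to 0.11 (Cidea). In 20 kb windows Plin1 also passed (-1.35, limma adjusted p = 0.03). By the number of islands the G0s2 call was lost (-0.63, limma adjusted p = 0.202) and Cidea was called with the opposite sign (0.58, limma adjusted p = 5.3e-09). At Cidea the empty-vector libraries went from 5 to 3 islands and the SETD5 libraries had 5 at both times.

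**Figure D3:**
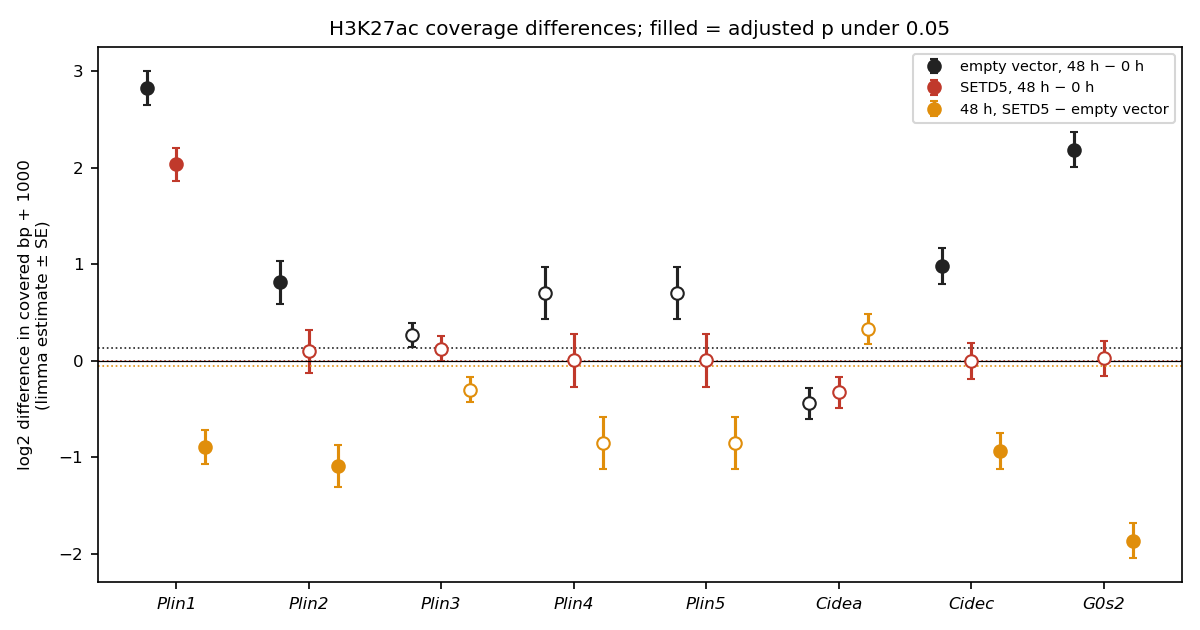
Log2 differences in H3K27ac coverage (covered bp + 1000, limma estimate ± SE, vertical axis) for the 8 members in 3 comparisons, with filled points where the adjusted p was under 0.05 and dotted lines at the median of all 17869 windows. Plin1 and G0s2 have the largest empty-vector increases (2.83 and 2.19), and G0s2 has the largest decrease with SETD5 (-1.86).

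Single islands were followed within each replicate letter. In the joined windows, 9 of 35 empty-vector 48 h islands in replicate A and 11 of 38 in replicate B had no 0 h island at the same place and were counted as induced, against 28.9% and 30.9% of the islands in the whole lists. The start-site islands of Cidec, Plin2, Plin3 and Plin4 overlapped 0 h islands by at least 1 base and were not counted as induced. Of the induced islands, 4 of 9 and 4 of 11 had no overlap with the SETD5-cell list of 48 h, a mean of 40.4% ± 5.71 (SD, n = 2), against 36.3% and 30.7% of all induced islands. The Plin1 islands and those beginning 57.4 kb after the Plin2 start site, which covered the start site of Haus6, overlapped a SETD5 island in both replicates. Of the 4 islands without one, 3 lay at the same places in both replicates: ending 17.2 and 18.2 kb after the G0s2 start site, ending at -49.8 kb from it, and ending 8.35 and 8.55 kb after the Cidec start site. The remaining one was an island from -23.4 to -19.8 kb at G0s2 in replicate A and the G0s2 start-site island in replicate B. The G0s2 start-site island of replicate A overlapped a SETD5 island of 1.4 kb from -6.02 to -4.62 kb.

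Some of the induced places carried H3K4me1 before induction. Of the member islands, 5 of 9 in replicate A and 6 of 11 in replicate B overlapped an H3K4me1 island at 0 h, against 38.3% of all induced islands in each replicate, and 7 of 9 and 8 of 11 did at 48 h, against 60.7% and 60.1%. The G0s2 region from -6.22 to -3.82 kb had H3K4me1 at 0 h, and at 48 h a 7.4 kb island joined it to the start site. At Plin4 the start-site H3K4me1 island was 7.0 kb at 0 h and 13.6 kb at 48 h, and at Cidec 3.2 and 8.2 kb. The start site of Plin3 had an H3K4me1 island of 2.6 kb at 48 h and none at 0 h. At Plin2 an island from -1.64 to -0.237 kb, next to the 5′ start site, was listed at 0 h and not at 48 h, when an island from 2.76 to 5.16 kb covered internal annotated start sites instead. At Plin5 an island of 2.6 kb at 48 h began 0.019 kb after the 5′ start site and covered the internal one.

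H3K4me1 coverage of the windows rose at least 2-fold on the covered bp + 1000 scale at 3 members and fell so far at 0, against 15.8% and 9.98% of the 16649 windows with an island. With 1 library per time these differences have no replicate check. Plin1 had 2.8 kb at 0 h and 10.3 kb at 48 h, Plin4 17.03 and 41.6 kb and Plin5 19.4 and 44.0 kb, the latter pair from nearly the same islands. Plin2 went from 9.6 to 6.6 kb, Cidea had 10.0 kb at both times, and Plin3, Cidec and G0s2 differed 1.25-, 1.32- and 1.51-fold. The median log2 difference was 0.50 over the members and 0.23 over all such windows.

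The joined windows held 16 and 6 SETD5-V5 islands at 0 h and 31 and 13 at 6 h in libraries A and B. Most of their coverage was in the windows of Plin3, Cidec and Plin4 with Plin5. In the Cidec window at 0 h, the longest library A island lay from 41.4 to 62.4 kb after the Cidec start site. It took in the start sites of Ttll3, Arpc4 and Tada3, 46.5, 57.6 and 57.9 kb after that of Cidec. The only library B island there at 0 h lay from 50.6 to 56.2 kb. At 0 h Plin1 and Plin2 had none in either library, and at 6 h Plin1 had 7.0 and 2.0 kb and Plin2 9.6 and 2.2 kb in libraries A and B. Both Plin1 libraries at 6 h had an island, from -28.7 to -23.9 kb and from -26.7 to -24.7 kb, within the distal stretch that H3K27ac islands covered at 48 h in both vectors. G0s2 had 0.4 kb in both libraries at 0 h and 5.6 and 4.4 kb at 6 h, with islands of 3.4 and 3.6 kb that began 29.2 and 27.8 kb after its start site. No SETD5-V5 list had an island over the start sites of Plin1, Cidec, G0s2, Plin5 or Cidea. Islands over the Plin2 start site occurred in library A at 6 h (3.6 kb), over that of Plin4 in library A at 0 h (3.2 kb) and 6 h (7.2 kb), and over that of Plin3 in library A at both times (4.6 and 6.6 kb) and in library B at 6 h (3.2 kb).

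The lists of SETD5-V5 differ in size, with 16054 and 6666 islands at 0 h and 35573 and 27220 at 6 h, and the number of islands moves with the time. By limma over 13825 windows, 1 of 8 members had higher coverage at 6 h (G0s2, 2.09 ± 0.39, limma adjusted p = 0.0426) and 0 lower, against 17.7% and 0.101% of all windows. Held to equal numbers of islands per list the G0s2 difference was -0.06 (limma adjusted p = 0.951), and the call was also lost without either 0 h library (limma adjusted p = 0.104 without A and 0.238 without B). Both 6 h values exceeded both 0 h values at 3 of 8 members (Plin1, Plin2 and G0s2) and fell below at 0, against 66.9% and 1.55% of all windows, and the median difference was 1.09 over the members and 1.91 over all windows. Of the member islands induced in H3K27ac, 0 in either replicate overlapped a SETD5-V5 island at 0 h, and 2 of 9 and 1 of 11 did at 6 h, against 11.7% and 4.58% of all induced islands at 0 h and 50.8% and 40% at 6 h. These counts leave out the empty-vector 48 h islands over the start sites of Cidec, Plin2, Plin3 and Plin4. At 6 h those of Cidec and Plin3 overlapped SETD5-V5 islands in both libraries, and those of Plin2 and Plin4 in library A only. The start-site islands of Plin1 and G0s2, which were counted, overlapped none.

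**Figure D4:**
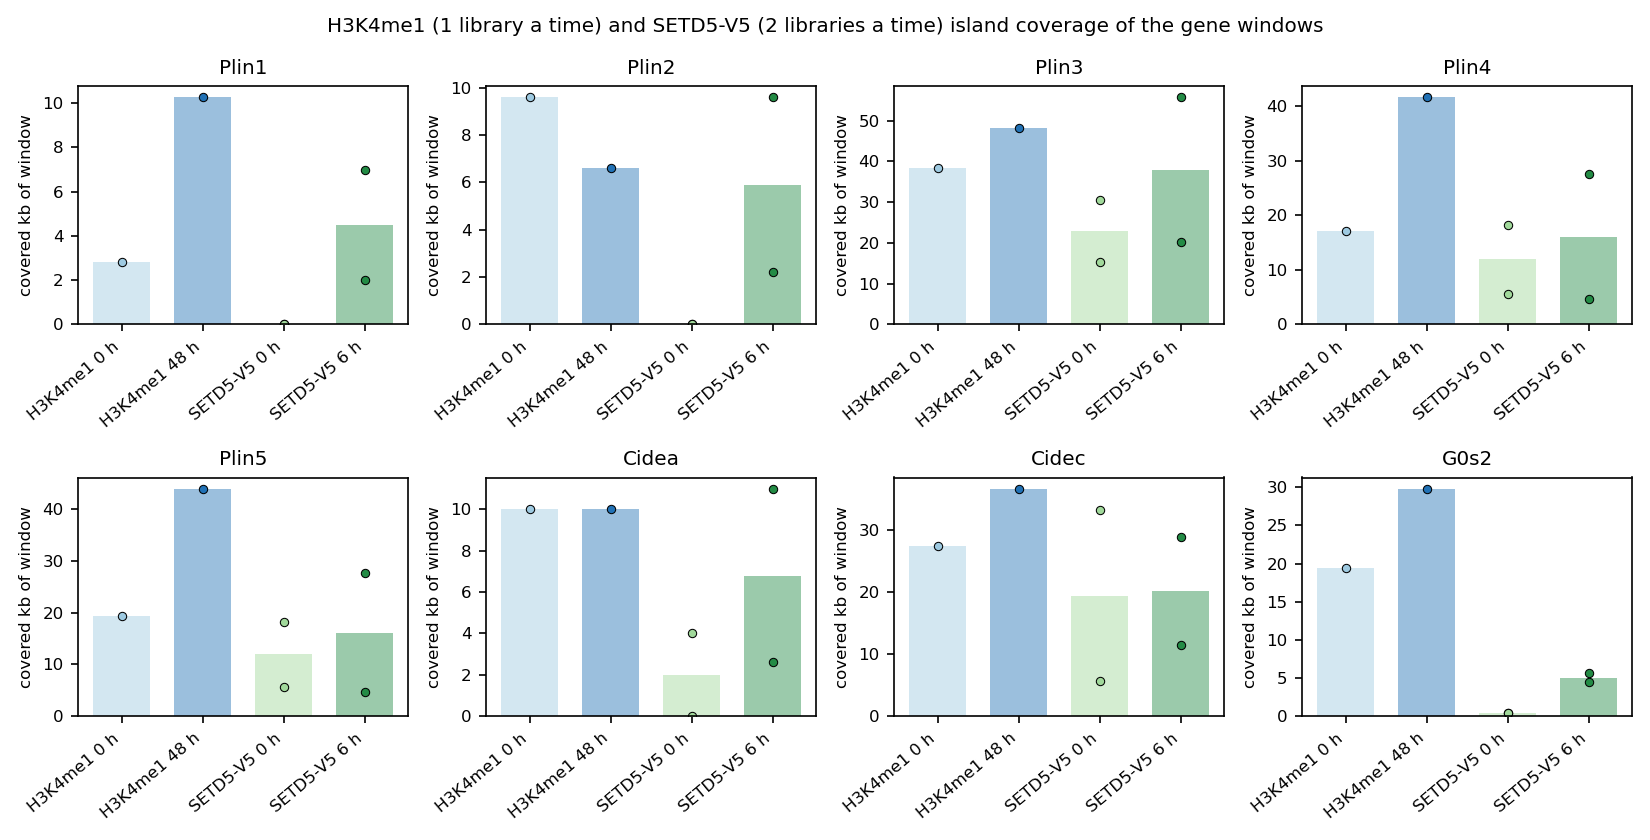
Bases under islands (kb, vertical axis) in each gene window for H3K4me1 at 0 h and 48 h, with 1 library each, and SETD5-V5 at 0 h and 6 h, with 2 libraries each (points, with bars for the mean). SETD5-V5 values of library A at 6 h exceed those of library B at every gene, from 5.6 against 4.4 kb at G0s2 to 55.7 against 20.2 kb at Plin3.

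Endogenous SETD5 had no island in 7 of the 8 windows at either time, in lists of 2132 and 3293 islands. In the G0s2 window it had an island of 0.4 kb at both times, 45.6 kb from the start site, where all 16 lists hold an island, chr1:195053801-195054200. Without that island the G0s2 window had 0 kb of endogenous SETD5 and 0 kb of SETD5-V5 at 0 h, and 3.4 and 3.6 kb of SETD5-V5 at 6 h. Coverage of the G0s2 window was thus the same at both times, and the other members, with no island, allow no comparison. Of the 5244 windows with an island, 63.7% rose at least 2-fold and 11.5% fell so far.

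Other genes of droplet and triglyceride handling were taken as a list of 27. Between 0 h and 48 h in empty-vector cells, 15 of the 27 gained H3K27ac coverage by limma, 0 lost it and 12 did not pass, against 24.9% of all windows called higher and 14.2% lower, with a median log2 difference of 0.65. In SETD5 cells 8 gained and 1 lost it, against 15.9% and 12.7% of all windows (median 0.17). At 48 h, 10 of the 27 were lower in SETD5 cells than in empty-vector cells and 1 was higher, against 8.93% and 7.86% of all windows (median -0.32). The largest empty-vector increases were at Fabp4, the fatty acid carrier of adipocytes (2.86, limma adjusted p = 6.13e-06), Mgll, the monoglyceride lipase (2.79, limma adjusted p = 0.000115), and Acsl1, which activates fatty acids (2.67, limma adjusted p = 5.82e-05). In SETD5 cells their differences were 0.77 (limma adjusted p = 0.00931), 0.16 (limma adjusted p = 0.765) and 0.46 (limma adjusted p = 0.234). Pnpla2, whose product G0s2 inhibits, had 0.36 in empty-vector cells (limma adjusted p = 0.192) and did not pass.

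Over the 16 lists, the genes outside the member windows whose coverage was most like the members' mean were Mrpl12 (Pearson r = 0.989), Hgs (0.989), Slc25a10 (0.987), Ccdc137 (0.985) and Arl16 (0.984), all on chromosome 11. These values span antibodies with very different list sizes, and the 5 genes are neighbours that share islands.

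As for the cells, the start sites of all 7 fibroblast and preadipocyte markers (Col1a1, Col1a2, Col3a1, Vim, Pdgfra, Pdgfrb, Thy1) carried an H3K27ac island in both libraries of all 4 groups, and those of the 8 markers of other cell types in none. Of 6 adipocyte markers, 3 (Pparg, Cebpa, Lep) carried one at 0 h in both vectors, 5 at 48 h in empty-vector cells, with Fabp4 and Adipoq added, and 4 at 48 h in SETD5 cells, with Fabp4 added. The part of these marker differences in the member values was not tested. Fewer cells with a mark and less mark per cell cannot be told apart in these bulk lists.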

How the data were processed

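Chromatin immunoprecipitation sequencing (ChIP-seq) lists of 16 libraries were used. The authors aligned reads, cut to 36 bp, to mm9 (by ELAND or Bowtie2), and ran SICER or SICER2 on every library on its own, in windows of 200 bp with gaps of 400 bp (histone marks) or 600 bp (SETD5) at an E-value of 100. Where the study gives island numbers for both callers, the lists used here have those of SICER2. The deposited lists give position and the caller's score, without read counts, so the depth of an island is unknown and absence means below the threshold. The score, as deposited, was used only to rank islands within a list.

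Groups and replicate letters came from the labels. The study describes the H3K27ac and SETD5-V5 libraries A and B as biological replicates. Genes, start sites and coordinates came from GENCODE on NCBIM37, which is mm9. Positions are 1-based. For every protein-coding gene, bases under islands within 50 kb were compared as log2(covered bp + 1000) with limma 3.58.1 in R 4.3.3 (moderated variance with trend, robust), Benjamini-Hochberg adjusted over all windows with an island in at least 2 of the fitted libraries, and called at an adjusted p of 0.05. The H3K27ac fit used 8 libraries and the SETD5-V5 fit 4. The pseudocount of 1000 bp understates the change of sparsely covered windows. On simulated data, the 48 h against 0 h comparison of the H3K27ac fit (17869 windows) recovered 44% of planted log2 changes of 1 and 89% of changes of 2, with 4.32% of calls false. The SETD5-V5 fit (13825 windows) recovered 0% of either size. Only 200 windows of each fit were changed, whereas 24.9% (H3K27ac) and 17.7% (SETD5-V5) of windows were called higher in the data. With so few changed windows the adjustment is stricter, so these percentages do not give the power of the fits. A member not called may still differ. Marks with 1 library per time were described by a 2-fold rule. Named were all 8 members, at most 3 genes of a further list of 27 and the 5 genes of most similar coverage. The members and lists were chosen with earlier results of these data known. Python 3.11.15, numpy 2.4.6 and matplotlib 3.10.9 were used. Alternatives were islands above the median score, equal numbers of islands, windows of 20 and 100 kb, island number, other pseudocounts (200 and 5000 bp), no filter, a replicate block, each library left out and an untrended variance.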

Additional observations from a re-analysis of the deposited data

Results flagged for a closer look

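The H3K27ac response to induction at G0s2 differed between the vectors: the log2 change from 0 h to 48 h in SETD5 cells minus that in empty-vector cells was -2.16 (limma interaction term, adjusted p = 0.00713). The call was lost by the number of islands (-0.63, limma adjusted p = 0.202) and without either SETD5 48 h library. It is a call on the whole window, which also held the start sites of Hsd11b1 and Lamb3. The value in empty-vector cells was 2.19, higher in both 48 h libraries than in both 0 h libraries, and in SETD5 cells it was 0.03, with overlapping values. Groups of 2 libraries allow no test for a single library that stands apart.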

How the results depend on the processing

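The counts of called members were 4 (empty vector, 48 h against 0 h), 1 (SETD5 cells), 4 (SETD5 against empty vector, 48 h), 0 (the same at 0 h), 1 (response) and 1 (SETD5-V5). Islands above the median score gave 7 for the first. For SETD5 against empty vector at 48 h, islands above the median score, equal numbers and a pseudocount of 5000 bp each gave 6, and windows of 20 kb gave 5. Windows of 20 kb gave 2 for SETD5 cells, 2 for the response, 0 for SETD5-V5 and 51.4% for the share of induced islands without a SETD5 island. Windows of 100 kb gave 2 for SETD5-V5, 1 for H3K4me1 and 1 for endogenous SETD5. The number of islands gave 1 for SETD5 against empty vector at 48 h, which was Cidea, higher in SETD5 cells (0.58), with the 4 lower calls lost, and 1 for the response, again Cidea in place of G0s2. It reversed Plin2 in empty-vector cells (-0.13) and Plin1 between vectors at 48 h (0.16). A pseudocount of 5000 bp gave 2 for the response and 0 for SETD5-V5, and one of 200 bp gave 3 for SETD5-V5. Equal numbers gave 0 for SETD5-V5, with G0s2 reversed at -0.061. No filter and an untrended variance each gave 0 for SETD5-V5. Requiring 50% of an island to be overlapped raised the share of induced islands to 71.4%. Leaving out 1 library gave 1 to 4 for SETD5 against empty vector at 48 h, 0 to 1 for the response and 0 to 3 for SETD5-V5, whose fit then has few libraries. Leaving out a letter gave 36.4% to 44.4% for the share. The cause of these changes was not tested. Of 105 alternatives to these results, 79 stayed within 1.5 times the count or 1 SD of the share.

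The libraries share replicate letters. A replicate block changed none of the H3K27ac counts and gave 3 in place of 1 for SETD5-V5. Differences of A and B correlated between -0.0344 and 0.118 over the 6 pairs of H3K27ac groups. The letters were therefore not taken as a pairing in the main limma fits. The induced islands were still matched within a letter, a matching for which these correlations give no ground, and no other matching is given. Removing the island that all lists share at G0s2, chosen after seeing the data, gave 2.17 for its SETD5-V5 difference. The lists hold no read counts, so no difference below the caller's threshold can be seen.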
